A study of Mus musculus with 47 samples.

Results

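Kidneys of female NZO/HlLtJ mice on a diet labelled 44% fat + fiber were compared with kidneys of female NZO/HlLtJ mice on a diet labelled 10% fat + fiber, gene by gene over all expressed genes. The comparison used 8 of the 47 kidney RNA-seq libraries of the series, 4 on 44% fat and 4 on 10% fat, taken by the strain, sex and diet in their labels. All 8 libraries share the inbred NZO/HlLtJ strain, the female sex and a genotype labelled WT, and the diets began at 6 weeks of age with collection at 15 weeks. The labels describe the richer diet as high in fat and sugar, and they call the tissue metanephros, a term for the developing kidney, while the series title says kidney. The whole series crosses NZO/HlLtJ, C57BL/6J and CAST/EiJ with both sexes and both diets. Each library has its own sample ID, but the labels do not state that each came from a separate mouse. A p-value here sets the difference between diets, with 4 libraries each, against a spread between libraries estimated over all 47. Part of that spread may be technical.

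NZO/HlLtJ is an inbred strain with polygenic obesity and insulin resistance, in which diabetes is mostly a trait of males. The kidney filters plasma and reclaims glucose, amino acids and salts along its tubules, and the proximal tubule burns fatty acids and makes glucose. Tubule cells also express complement components, major histocompatibility complex (MHC) molecules and chemokines, which attract leukocytes, whereas immunoglobulin transcripts come from B cells and plasma cells.

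Library totals were 41.3 to 49.6 M counts in the 8 libraries and 34.4 to 58.4 M over the series. The deposited sample ID numbers fall into 3 runs, and the labels do not say what the runs are. Replicate numbers are not in the labels and follow the order of the sample IDs within each group. On 44% fat, replicates 1 and 2 have IDs of run 77 and replicates 3 and 4 of run 89. On 10% fat, replicates 1 and 2 have IDs of run 77 and replicates 3 and 4 of run 81. The diets share only run 77, so the run term was estimated over all groups and values within run 77 are given for the leading genes. Proximal tubule genes, which mark the kidney cortex, summed to 18724 to 22859.8 CPM (counts divided by library size in M, with sizes scaled by the trimmed mean of M values) in the 8 libraries. Transcripts of the mitochondrial genome took 11.9 to 13.0% of counts on 44% fat and 11.4 to 12.4% on 10% fat. Replicate 2 on 44% fat stands apart in its immune transcripts, and many list medians are given with and without it.

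Few genes passed the test. The model held all 47 libraries, with a mean for each of 12 groups and a term for the ID run. With edgeR's quasi-likelihood test and Benjamini-Hochberg adjustment, 28 of 18786 genes (0.149%) had an adjusted p under 0.05, 21 higher on 44% fat (0.112%) and 7 lower (0.0373%). Without adjustment, 1818 genes had p under 0.05, which is 9.68% of those tested (5.7% higher and 3.98% lower), and the median log2 fold change of all genes was 0.00085. Most called differences were small, with 22 of the 28 below 1 and 10 below 0.5 in absolute log2 fold change. Their adjusted p-values in edgeR's test were 0.00343 to 0.0468, and 15 were over 0.04. Within run 77 alone, 26 of the 26 called genes that had a value kept the sign, in libraries that had also entered the call. No gene passed the test there with 2 libraries a diet (1192 genes at unadjusted p under 0.05 in edgeR's test). The 44% libraries of run 77 are replicates 1 and 2, so all values within run 77 include replicate 2. In fits without replicate 2, the diets share run 77 through 44% replicate 1 alone.

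The call depended on single libraries. The count became 77, 5, 9 and 16 when 44% replicates 1, 2, 3 and 4 were left out in turn, and 5, 12, 2 and 4 when 10% replicates 1, 2, 3 and 4 were left out. Of the 28 genes, 2 were called in all 8 of these fits, Sectm1b and Efemp1. Another 10 were called in 1 of the 8 fits, and Bzrap1 was called in none. Without 44% replicate 2, 27 of the 28 genes kept their sign and 5 were still called (4 higher, 0.0213% of all genes, and 1 lower, 0.00532%), namely Sectm1b, Efemp1, Akr1c21, Enpp6 and Aass.

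**Figure D1:**
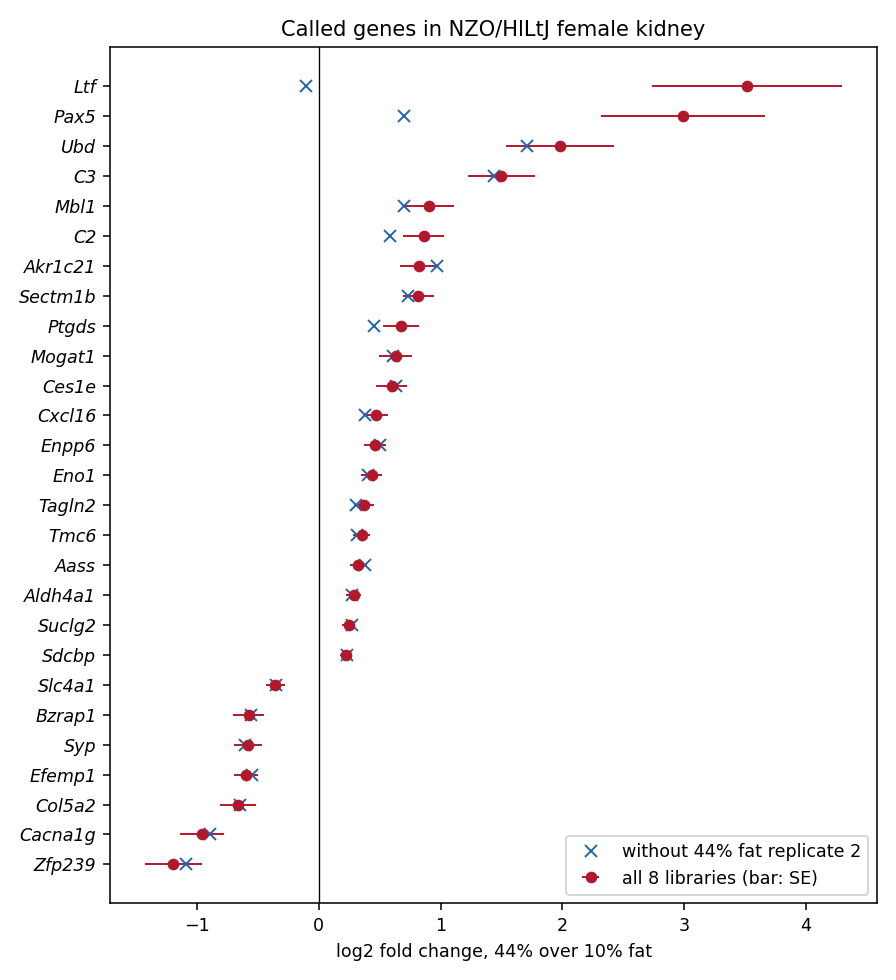
Log2 fold change of the called genes, 44% over 10% fat, in NZO/HlLtJ female kidney. Red points with bars are the model of all 47 libraries, which include all 8 female ones, with its SE. Blue crosses are the same model without 44% replicate 2. Cd163l1 is left out because all its 10% libraries are at 0. Ltf and Pax5 move most between the fits, with Ltf at 3.52 and -0.11, and C3 stands at 1.5 and 1.43.

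A stretch of promoter sequence is shown for a called gene that holds a DR1 motif. DR1 is AGGTCA repeated in the same direction with 1 base between the copies, the arrangement bound by PPAR and HNF4 receptors, which govern lipid genes in liver and kidney. The RefSeq windows of 300 bases (250 before to 50 after the start, build GRCm38.p6) were searched on both strands with up to 2 mismatches in all. A window was given for 21 of the 28 called genes, and 2 of the 21 (9.52%), Mogat1 and Aass, held a match, against 1190 of 27025 genes with a window (4.4%). The bases before the start of Aass (chr6:23132987-23133236, minus strand) are printed 5′ to 3′ on the gene's strand with the match in capitals.
Aass: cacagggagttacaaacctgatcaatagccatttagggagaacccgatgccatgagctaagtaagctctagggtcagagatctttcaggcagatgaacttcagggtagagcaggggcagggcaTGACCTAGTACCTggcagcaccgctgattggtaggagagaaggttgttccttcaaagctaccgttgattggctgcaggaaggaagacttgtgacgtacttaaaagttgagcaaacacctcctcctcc
The Aass match lies 127 to 115 bases before the start on the opposite strand. It has 2 mismatches to the repeat, so it is a match of letters and not a site shown to be bound. Bases after the RefSeq start of Mogat1 were not found near the beginning of a GENCODE transcript of that gene. The place of its match relative to a start is therefore uncertain, and its window is not printed.

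Complement and innate immune genes were among the called increases. C3, the central component of the complement cascade (chromosome 17, 57203970 to 57228136, minus strand, GRCm38), stood at 116, 261, 336 and 232 CPM in the 44% replicates 1 to 4. It stood at 82.6, 91.3, 83.2 and 79.4 CPM in the 10% replicates. The groups did not overlap, and the lowest 44% library was replicate 1. Mean C3 was 236 ± 91.5 CPM on 44% fat and 84.1 ± 5.09 CPM on 10% fat (SD, n = 4 each), a log2 fold change of 1.5 (SE 0.27, edgeR adjusted p = 0.0215). Without 44% replicate 2 the log2 fold change was 1.43 with an edgeR adjusted p of 0.0917, and within run 77 it was 1.11. C3 kept its call in 3 of 8 leave-one-out fits and lost it without 44% replicate 2 or 3 or 10% replicate 1, 3 or 4.

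C2, the protease of the classical and lectin C3 convertase, rose on 44% fat. It had 3.0, 5.93, 3.45 and 3.92 CPM on 44% fat, against 2.32, 2.45, 2.07 and 2.11 CPM on 10% fat, with replicate 2 highest among the 44% libraries and no overlap. Its log2 fold change was 0.86 (SE 0.17, edgeR adjusted p = 0.0224) and 0.58 without 44% replicate 2 (edgeR adjusted p = 0.234). Of the 31-base words of C2 transcripts, 44.4% also occur in transcripts of other genes, mostly the overlapping predicted gene Gm20547 (40.2%), whose rounded counts are 0 in all 8 libraries. Mbl1, a mannose-binding lectin that starts the lectin pathway, had 1.51, 3.26, 2.54 and 2.30 CPM on 44% fat, against 1.01, 1.38, 1.64 and 1.51 CPM on 10% fat. Its groups overlapped, because 44% replicate 1 lay inside the 10% range, and its log2 fold change was 0.91 (SE 0.20, edgeR adjusted p = 0.0464) and 0.70 without 44% replicate 2 (edgeR adjusted p = 0.419). Factor B, encoded by Cfb in the alternative pathway, did not pass the test at 4.95, 11.1, 4.68 and 5.12 CPM on 44% fat, against 5.19, 5.11, 4.27 and 4.44 CPM on 10% fat.

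Mbl1 is not in the complement list. Of its 21 genes tested, 2 rose and none fell at the adjusted threshold, 16 had a positive log2 fold change, and the median was 0.37 with 44% replicate 2 and 0.08 without it. All 4 libraries on 44% fat lay above all 4 on 10% fat for 4 complement genes, with and without replicate 2, against a background of 4.09% of all genes higher and 3.22% lower. Without replicate 2 that background is 5.9% and 4.71%.

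Sectm1b had the smallest adjusted p of all genes. It encodes a secreted and transmembrane protein of the family that binds CD7 on lymphocytes, and it lies on chromosome 11 (121053458 to 121063569, minus strand). Its levels were 33.4, 42.1, 34.2 and 38.9 CPM on 44% fat, against 20.2, 21.97, 21.3 and 20.4 CPM on 10% fat, so that every 44% library stood clear of the 10% range. The log2 fold change was 0.81 (SE 0.13, edgeR adjusted p = 0.00343), 0.73 without 44% replicate 2 (edgeR adjusted p = 0.0381) and 0.84 within run 77. Its call held in all 8 fits that left out 1 library.

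Ubd, a ubiquitin-like modifier induced by interferon gamma and TNF, had 2.14, 4.21, 2.73 and 2.50 CPM on 44% fat, against 0.514, 0.802, 0.553 and 0.777 CPM on 10% fat. It falls below the level set for naming genes and is named after its values were seen. For Ubd the log2 fold change was 1.98 (SE 0.44, edgeR adjusted p = 0.0464) and 1.71 without 44% replicate 2 (edgeR adjusted p = 0.317). Cxcl16, a membrane-bound chemokine that also takes up oxidised lipoprotein, had 45.4, 58.1, 50.4 and 43.2 CPM on 44% fat, against 36.0, 34.1, 36.3 and 34.7 CPM on 10% fat. The groups of Cxcl16 did not overlap, with a log2 fold change of 0.47 (SE 0.10, edgeR adjusted p = 0.0283) and 0.38 without 44% replicate 2 (edgeR adjusted p = 0.253). Its transcripts share 18.5% of their 31-base words with the neighbouring Zmynd15.

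**Figure D2:**
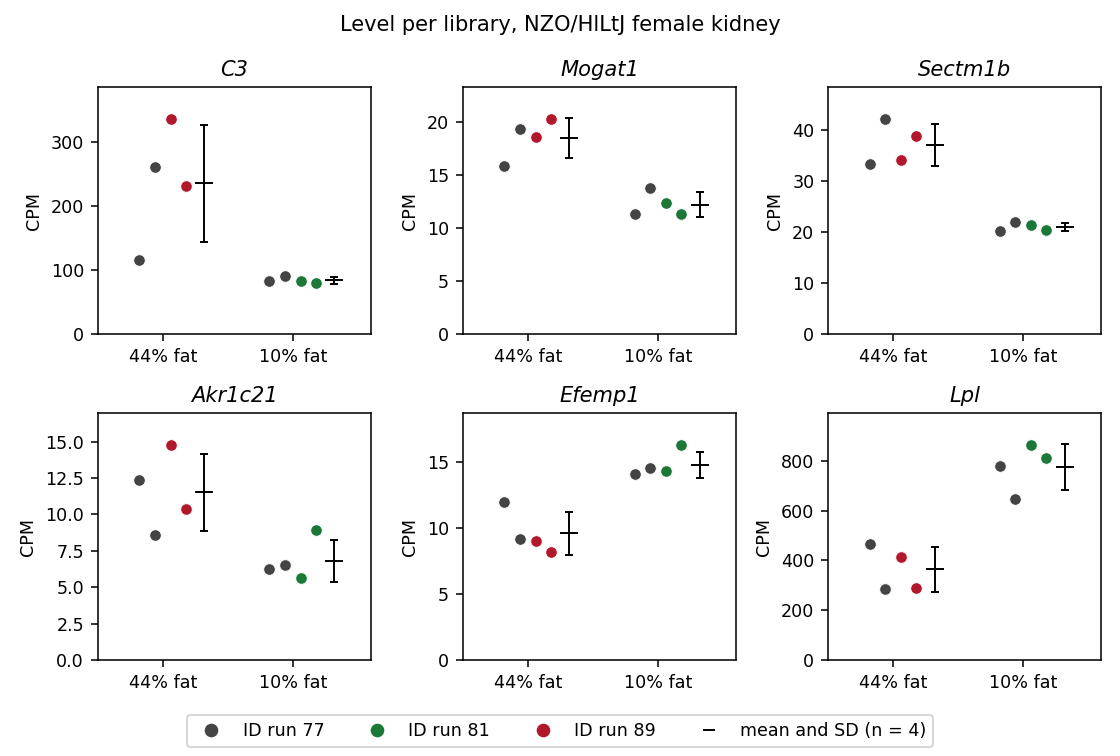
CPM of 6 genes in each NZO/HlLtJ female library, 44% fat left of 10% fat, with points coloured by sample ID run and bars for the mean and SD of 4 libraries. The diets do not overlap for C3, Mogat1, Sectm1b, Efemp1 and Lpl, and they overlap for Akr1c21, where 44% replicate 2 at 8.61 CPM lies below 10% replicate 4 at 8.90 CPM.

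Other called increases were in single genes of lipid, ester or steroid handling, grouped here for reading and not tested as a group. Mogat1, a monoacylglycerol acyltransferase that makes diacylglycerol for triglyceride, had 15.9, 19.3, 18.6 and 20.3 CPM on 44% fat, against 11.3, 13.8, 12.3 and 11.4 CPM on 10% fat, with no overlap. Its log2 fold change was 0.63 (SE 0.14, edgeR adjusted p = 0.0464) and 0.61 without 44% replicate 2 (edgeR adjusted p = 0.199). Ces1e, a carboxylesterase that hydrolyses esters, had 43.4, 43.1, 39.4 and 49.97 CPM on 44% fat, against 34.3, 35.4, 26.5 and 30.8 CPM on 10% fat. The fit for Ces1e gave a log2 fold change of 0.60 (SE 0.13, edgeR adjusted p = 0.0439) and 0.63 without 44% replicate 2 (edgeR adjusted p = 0.11). Carboxylesterase genes lie in a cluster of near copies, and Ces1e shares 8.09% of its 31-base words with other genes.

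Akr1c21, an aldo-keto reductase of steroids also known as a 17-alpha hydroxysteroid dehydrogenase, had 12.4, 8.61, 14.8 and 10.4 CPM on 44% fat, against 6.24, 6.53, 5.61 and 8.90 CPM on 10% fat. Replicate 2 was the lowest of the 44% libraries here and overlapped with 10% replicate 4. The log2 fold change was 0.82 with all 8 libraries (SE 0.16, edgeR adjusted p = 0.0224) and 0.97 without replicate 2 (edgeR adjusted p = 0.00459). Enpp6, a choline-specific phosphodiesterase, had 87.2, 78.4, 83.6 and 84.2 CPM on 44% fat, against 65.5, 63.7, 54.6 and 61.5 CPM on 10% fat. Its log2 fold change was 0.46 (SE 0.09, edgeR adjusted p = 0.0224), with no overlap and a call that held without 44% replicate 2 at 0.50 (edgeR adjusted p = 0.0381). Ptgds, which makes prostaglandin D2, averaged 11.9 ± 3.32 CPM on 44% fat and 7.70 ± 0.33 CPM on 10% fat (SD, n = 4 each). Its log2 fold change was 0.68 (SE 0.15, edgeR adjusted p = 0.0464) and 0.46 without 44% replicate 2 (edgeR adjusted p = 0.463), and replicate 2 was the highest 44% library at 16.3 CPM.

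Among the called increases were also 4 enzymes of amino acid or energy metabolism, described one by one. Aass, the first enzyme of lysine breakdown in mitochondria, had 290.4, 260.2, 305 and 321 CPM on 44% fat, against 212, 232, 256 and 246 CPM on 10% fat. The log2 fold change was 0.32 (SE 0.07, edgeR adjusted p = 0.046), and 0.37 without 44% replicate 2 (edgeR adjusted p = 0.0381). Aldh4a1 of proline breakdown averaged 451 ± 22.2 CPM on 44% fat and 374 ± 12.8 CPM on 10% fat (SD, n = 4 each). Suclg2, the GTP-forming subunit of succinyl-CoA ligase, averaged 378 ± 16.2 CPM on 44% fat and 318 ± 6.26 CPM on 10% fat (SD, n = 4 each). These pairs of groups did not overlap, and the edgeR adjusted p was 0.0464 for each, at log2 fold changes of 0.29 for Aldh4a1 and 0.24 for Suclg2. Neither passed without 44% replicate 2, at edgeR adjusted p = 0.236 for Aldh4a1 and 0.0917 for Suclg2. Other genes, mostly predicted ones with Gm symbols, share 31% of the 31-base words of Aldh4a1 and 20.7% of those of Suclg2.

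Eno1, the glycolytic enolase, had 1049, 1219.9, 1160.1 and 1110.1 CPM on 44% fat, against 853, 894, 837 and 773 CPM on 10% fat. The log2 fold change of Eno1 was 0.43 (SE 0.09, edgeR adjusted p = 0.0247) and 0.40 without 44% replicate 2 (edgeR adjusted p = 0.168). Its near-identical copy Eno1b holds 27.7% of the 31-base words of Eno1 and stood at 0.55, 1.03, 0.588 and 0.865 CPM on 44% fat, against 0.335, 0.0802, 0.217 and 0.143 CPM on 10% fat, so the split of reads between the copies is uncertain. The other called increases were in Tagln2, an actin-binding protein (log2 fold change 0.37), Tmc6, a membrane channel-like protein linked to papillomavirus susceptibility in humans (0.35), and Sdcbp, the adaptor syntenin (0.22). All 4 libraries on 44% fat lay above all 4 on 10% fat for each of them, as for 4.09% of all genes. These genes had been selected for a small p in the same libraries. None of them passed without 44% replicate 2, at edgeR adjusted p from 0.163 to 0.377.

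All 7 genes that fell had no overlap between diets, but they had been selected for a small p in the same libraries. Over all genes, 3.22% were lower on 44% fat without overlap. Efemp1, which encodes the matrix glycoprotein fibulin-3 (chromosome 11, 28853204 to 28926743, plus strand), had 11.9, 9.19, 9.02 and 8.15 CPM on 44% fat, against 14.1, 14.5, 14.3 and 16.2 CPM on 10% fat. Its log2 fold change was -0.60 (SE 0.10, edgeR adjusted p = 0.00383), -0.55 without 44% replicate 2 (edgeR adjusted p = 0.0381) and -0.44 within run 77. Col5a2, a chain of fibril-forming collagen V, had 47.1, 39.3, 34.5 and 32.9 CPM on 44% fat, against 58.0, 59.6, 62.3 and 71.6 CPM on 10% fat, with a log2 fold change of -0.67 (SE 0.15, edgeR adjusted p = 0.0464). It is the 1 called member among 23 genes of collagen and matrix remodelling, of which 18 were positive on the log2 scale (median 0.13, and 11 positive with a median of -0.00076 without 44% replicate 2).

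Zfp239, a zinc finger protein, had 8.26, 4.69, 7.0 and 4.46 CPM on 44% fat, against 14.2, 11.5, 10.9 and 14.7 CPM on 10% fat, the largest fall among the 7 called genes at -1.19 (SE 0.23, edgeR adjusted p = 0.0224). Cacna1g, a T-type calcium channel, had 5.59, 4.30, 5.67 and 4.12 CPM on 44% fat, against 7.85, 8.04, 12.9 and 11.2 CPM on 10% fat, a log2 fold change of -0.96 (SE 0.18, edgeR adjusted p = 0.0215). Syp, the synaptic vesicle protein synaptophysin, and Bzrap1, a scaffold of presynaptic sites, fell by 0.58 each on the log2 scale. Syp averaged 3.63 ± 0.31 CPM on 44% fat and 5.47 ± 0.43 CPM on 10% fat, and Bzrap1 averaged 3.46 ± 0.30 CPM on 44% fat and 4.92 ± 0.56 CPM on 10% fat (SD, n = 4 each). Without 44% replicate 2 these 4 genes and Col5a2 missed the threshold, at edgeR adjusted p from 0.0917 to 0.234, at log2 fold changes of -1.09 for Zfp239, -0.89 for Cacna1g, -0.60 for Syp, -0.56 for Bzrap1 and -0.65 for Col5a2. Transcripts of Syp share 17.1% of their 31-base words with other genes.

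The remaining fall was in an acid-base gene. Slc4a1, the chloride-bicarbonate exchanger of type A intercalated cells and of red blood cells, had 56.6, 50.3, 48.2 and 50.3 CPM on 44% fat, against 66.6, 67.2, 60.3 and 67.8 CPM on 10% fat. The log2 fold change was -0.36 (SE 0.08, edgeR adjusted p = 0.0464) and -0.36 without 44% replicate 2 (edgeR adjusted p = 0.173). All 10 intercalated cell genes tested had a negative log2 fold change, with 1 called, a median of -0.24, and 7 with every 44% library below every 10% library, also without replicate 2 (3.22% of all genes, and 4.71% without replicate 2). Their summed level was 349.5 to 372 CPM on 44% fat and 417 to 429 CPM on 10% fat. In whole kidney, fewer cells of a type and less RNA per cell cannot be told apart. Insrr, an insulin receptor-like sensor of alkaline pH, had 22.4, 21.3, 19.3 and 21.1 CPM on 44% fat, against 28.3, 26.9, 28.2 and 28.4 CPM on 10% fat, just short of a call with an edgeR adjusted p of 0.0513. Slc4a9, the anion exchanger of type B intercalated cells, averaged 28.5 ± 1.72 CPM on 44% fat and 35.7 ± 2.46 CPM on 10% fat (SD, n = 4 each; edgeR adjusted p = 0.179).

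Replicate 2 on 44% fat carried immune transcripts at levels that the other 7 libraries did not show. Of 140 immune list genes with a mean of at least 10 counts, 61 (43.6%) were at least 2 times as high in it as in any other library of its diet, against 0 in each of 44% replicates 1, 3 and 4 and 1, 4, 1 and 2 in the 10% replicates 1 to 4. Over all genes the same count was 342 of 16727 (2.04%) in 44% replicate 2, and 23, 19 and 39 in 44% replicates 1, 3 and 4. In the 10% replicates it was 25, 60, 76 and 34. The uneven genes included 21 of 23 B and plasma cell genes, 16 of 21 T and NK cell genes, 4 of 4 neutrophil genes, 7 of 10 MHC class II genes and 5 of 12 chemokine and cytokine genes. They included 4 of 13 macrophage and monocyte genes, 2 of 20 complement genes, 2 of 23 interferon response genes and 0 of 14 MHC class I genes.

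Immunoglobulin transcripts, over 54 genes, summed to 538 CPM in 44% replicate 2. They summed to 26.2, 16.1 and 15.9 CPM in 44% replicates 1, 3 and 4 and to 13.0 to 23.1 CPM in the 10% libraries. That library was the highest of all 47 in the series for this sum, with the next at 237 CPM in a CAST/EiJ male on 44% fat, and 44 immunoglobulin genes had at least 10 counts in it, against 5 to 11 in the other 7. Jchain, which joins IgA and IgM units, stood at 3.77, 91.1, 2.20 and 1.43 CPM on 44% fat, against 1.5, 2.99, 2.98 and 2.17 CPM on 10% fat. Igkc, the kappa light chain constant region, stood at 5.4, 136, 2.43 and 2.23 CPM on 44% fat, against 1.94, 3.91, 4.64 and 3.76 CPM on 10% fat. Ighg2c, a heavy chain of IgG, was at 31.6 CPM in 44% replicate 2, at 0.041 CPM in 44% replicate 1 and listed at 0 in 44% replicates 3 and 4. On 10% fat it was at 0.361 CPM in replicate 2, at 0.0205 CPM in replicate 4 and at 0 in the others, and 15% of its 31-base words occur in other genes.

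Markers of other leukocytes were high in the same library. The B cell marker Ms4a1 (CD20) stood at 0.367, 3.55, 0.228 and 0.592 CPM on 44% fat, against 0.134, 0.12, 0.079 and 0.225 CPM on 10% fat. Cd3e of the T cell receptor complex was at 0.143, 2.02, 0.19 and 0.205 CPM on 44% fat, against 0.291, 0.321, 0.158 and 0.389 CPM on 10% fat. Zap70, the T cell signalling kinase, reached 1.24 CPM in 44% replicate 2 and at most 0.301 CPM elsewhere. The myeloid lysozyme Lyz2 stood at 14.6, 73.2, 15.96 and 15.9 CPM on 44% fat, against 14.8, 16.7, 15.7 and 15.1 CPM on 10% fat. S100a9, a neutrophil alarmin, had 0.408, 1.42, 0.455 and 0.615 CPM on 44% fat, against 0.0894, 0.0601, 0.0395 and 0.368 CPM on 10% fat, so that it did not overlap even without replicate 2.

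**Figure D3:**
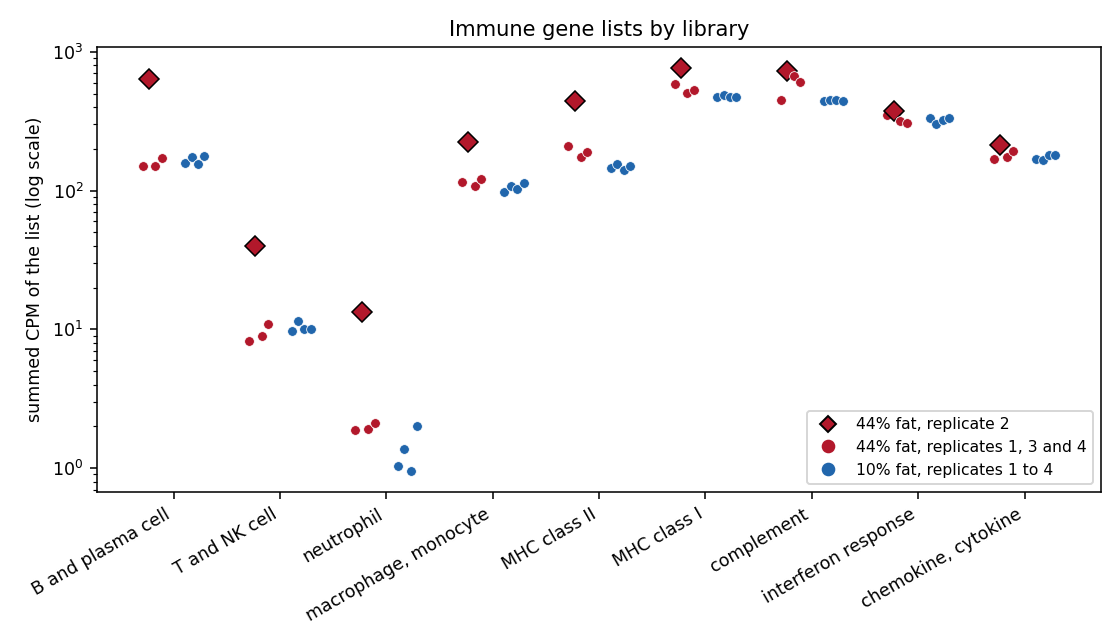
Summed CPM (log axis) of 9 immune gene lists in each library, 44% fat in red left of 10% fat in blue, with 44% replicate 2 drawn as a diamond. The B and plasma cell list is at 642 CPM in that library and at 150.1 to 177 CPM in the other 7, whereas for complement it is at 724 CPM with 44% replicates 3 and 4 at 669 and 604 CPM.

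Summed over their lists, B and plasma cell genes stood at 642 CPM in 44% replicate 2 against 150.1 to 177 CPM in the other 7 libraries, and T and NK cell genes at 39.7 CPM against 8.30 to 11.5 CPM. Neutrophil genes summed to 13.4 CPM against 0.948 to 2.12 CPM, macrophage and monocyte genes to 225 CPM against 97.8 to 121 CPM, and MHC class II genes to 443 CPM against 141 to 210.4 CPM. Among all 47 libraries of the series, 44% replicate 2 ranked 1 for the B and plasma cell, T and NK cell and neutrophil sums. It ranked 2 for MHC class II, 4 for macrophage and monocyte, 6 for interferon response and 10 for MHC class I genes. For chemokines and cytokines it ranked 22 and for complement 32. Proximal tubule genes summed to 18724 CPM in that library, the lowest of the 8. Without it, the median log2 fold change was -0.04 for 24 B and plasma cell genes (2.25 with it), -0.24 for 23 T and NK cell genes (0.87 with it), 0.07 for 14 macrophage and monocyte genes (0.35 with it) and 0.29 for 6 neutrophil genes (1.30 with it). The called genes Pax5, Ltf and Cd163l1 rest on this library.

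Pax5, the B cell identity factor, was at 2.99 CPM in 44% replicate 2, at 0.163, 0.209 and 0.137 CPM in the other 44% libraries and at 0.0894, 0.14, 0.079 and 0.0818 CPM on 10% fat. Ltf, lactoferrin of neutrophil granules and glands, was at 8.05 CPM in 44% replicate 2, at 0.143 to 0.205 CPM in the other 44% libraries and at 0.118 to 0.241 CPM on 10% fat. Cd163l1, a scavenger receptor known from gamma-delta T cells and named after its values were seen, had 153 counts in 44% replicate 2, 8 in the other 44% libraries together and 0 on 10% fat. In that library it was at least 44.2-fold higher than the limit of 3 counts in a 10% library. Without 44% replicate 2, the log2 fold changes were 0.70 for Pax5 (edgeR adjusted p = 0.906) and -0.11 for Ltf (edgeR adjusted p = 0.998), and the edgeR adjusted p of Cd163l1 was 0.5. Its part in the calls of C3, C2, Mbl1, Ubd, Cxcl16 and Ptgds was not tested beyond the values without it given for each.

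Several immune genes also lay higher on 44% fat outside that library, without passing the test. MHC class II genes lay above all 10% libraries in every 44% library for 5 of 10, with and without replicate 2 (4.09% of all genes, and 5.9% without it), at a median of 0.77 and of 0.22 without it. H2-Ab1, a class II beta chain, had 21.8, 46.7, 17.7 and 18.8 CPM on 44% fat, against 15.1, 15.2, 14.1 and 13.5 CPM on 10% fat (edgeR adjusted p = 0.275). H2-DMb1, which helps load peptide on class II, had 5.54, 10.5, 4.55 and 4.76 CPM on 44% fat, against 2.93, 3.57, 2.63 and 2.76 CPM on 10% fat (edgeR adjusted p = 0.0799). Without replicate 2, the class I gene H2-K1 averaged 53.4 ± 6.32 CPM on 44% fat (SD, n = 3) and 39.2 ± 3.56 CPM on 10% fat (SD, n = 4), with a log2 fold change of 0.42 against 0.65 with it. Its partner B2m averaged 181 ± 16.3 CPM on 44% fat without replicate 2 (SD, n = 3) and 145 ± 3.23 CPM on 10% fat (SD, n = 4), with a log2 fold change of 0.32 against 0.49 with it. For 14 MHC class I genes 13 log2 fold changes were positive, with a median of 0.43 and of 0.14 without replicate 2. Of the 14, 2 lay above all 10% libraries in every 44% library, with and without replicate 2 (4.09% of all genes, and 5.9% without it). Cxcl10, an interferon-induced chemokine, had 5.91, 16.6, 9.20 and 6.08 CPM on 44% fat, against 3.55, 4.87, 2.19 and 3.74 CPM on 10% fat (edgeR adjusted p = 0.128). No interferon response gene of 24 was called, at a median of 0.24 and of 0.11 without replicate 2, and Cxcl16 was the 1 called gene of 15 chemokines and cytokines, at a median of 0.90 and of 0.12 without it. C1qa, of the classical pathway and made by macrophages, stayed within the 10% range outside replicate 2. It had 5.44, 11.0, 4.95 and 5.24 CPM on 44% fat, against 4.0, 4.25, 5.71 and 5.69 CPM on 10% fat.

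Glucose handling genes were mostly higher without a call. Among 15 genes for moving or making glucose, 12 were positive on the log2 scale (median 0.23), and for 7 every 44% library exceeded every 10% library (8 without 44% replicate 2), against 4.09% of all genes and 5.9% without it. Slc2a2, which encodes the basolateral glucose transporter GLUT2, had 281, 277, 276 and 284 CPM on 44% fat, against 223, 232, 219.5 and 173 CPM on 10% fat (log2 fold change 0.43, edgeR adjusted p = 0.134). Slc5a2, the sodium-glucose transporter SGLT2, had 391, 421, 429 and 423 CPM on 44% fat, against 388, 338, 352 and 344 CPM on 10% fat (edgeR adjusted p = 0.189). The gluconeogenic enzymes Fbp1 and G6pc averaged 942 ± 29.7 and 518 ± 42.5 CPM on 44% fat, and 782 ± 65.4 and 362 ± 98.1 CPM on 10% fat (SD, n = 4 each), with edgeR adjusted p of 0.181 for Fbp1 and 0.21 for G6pc. No gene of 15 in insulin signalling was called (9 positive, median 0.02, and 10 positive with a median of 0.03 without 44% replicate 2). The lowest adjusted p among them was that of Enpp1, an inhibitor of the insulin receptor, at 58.0 ± 4.37 CPM on 44% fat and 67.9 ± 3.11 CPM on 10% fat (SD, n = 4 each; edgeR adjusted p = 0.0888).

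Lipid genes went both ways. Lpl, the lipase that frees fatty acids from lipoproteins, had 465, 284, 415 and 290.3 CPM on 44% fat, against 779, 645, 862 and 811 CPM on 10% fat. Its groups did not overlap and its log2 fold change was -1.06 (SE 0.32), yet the edgeR adjusted p was 0.194. Plin2, which coats lipid droplets, had 23.9, 29.5, 25.5 and 26.1 CPM on 44% fat, against 18.8, 20.5, 21.0 and 18.5 CPM on 10% fat (edgeR adjusted p = 0.0938). Mogat2, a second monoacylglycerol acyltransferase, had 10.4, 17.0, 13.4 and 13.6 CPM on 44% fat, against 7.47, 9.94, 8.10 and 5.38 CPM on 10% fat (edgeR adjusted p = 0.0888). Mogat1 was the 1 called gene of 29 in triglyceride synthesis and lipid droplets, of which 18 had a positive log2 fold change at a median of 0.06 (16 and 0.04 without 44% replicate 2).

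No gene was called among 32 of PPAR alpha and fatty acid oxidation (23 positive, median 0.09), 18 of fatty acid synthesis and desaturation (5 positive, median -0.10) or 22 of cholesterol synthesis and uptake (13 positive, median 0.12, and 0.05 without 44% replicate 2). Hadh, a beta-oxidation dehydrogenase, averaged 313 ± 12.2 CPM on 44% fat and 273 ± 8.28 CPM on 10% fat, while Acadm, the medium-chain acyl-CoA dehydrogenase, averaged 1068 ± 94.8 CPM on 44% fat and 1383 ± 121 CPM on 10% fat (SD, n = 4 each). The diets did not overlap for either of these genes, as for 4.09% of all genes higher and 3.22% lower. Neither was called (edgeR adjusted p = 0.161 for Hadh).

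Proliferation genes leaned one way as a list. The log2 fold changes of all 14 cell cycle genes were positive (median 0.84, and 0.60 without 44% replicate 2), 7 higher without overlap in both cases (4.09% of all genes, and 5.9% without it) and none called. Their summed level was 83.7, 125, 82.5 and 97.6 CPM on 44% fat, against 72.1, 63.9, 67.0 and 65.7 CPM on 10% fat. Birc5, which encodes the mitotic protein survivin, had 1.35, 1.86, 1.42 and 1.82 CPM on 44% fat, against 0.872, 0.501, 0.79 and 0.532 CPM on 10% fat (edgeR adjusted p = 0.0938). Mcm5, a subunit of the replicative helicase, had 5.97, 8.78, 7.41 and 6.67 CPM on 44% fat, against 6.17, 4.25, 4.48 and 4.68 CPM on 10% fat (edgeR adjusted p = 0.128). The cell cycle sum was highest in 44% replicate 2, and the part of its immune transcripts in this sum was not tested.

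Of 20 tubular injury and repair genes 17 were positive, none called, with a median of 0.26, and 15 with a median of 0.10 without 44% replicate 2. They summed to 1772, 2216, 1883 and 1879.9 CPM on 44% fat, against 1537, 1584, 1527 and 1564 CPM on 10% fat. Vcam1, an adhesion molecule of activated endothelium and injured tubule, had 21.6, 31.2, 26.2 and 22.7 CPM on 44% fat, against 18.2, 15.9, 14.8 and 16.6 CPM on 10% fat (edgeR adjusted p = 0.0888).

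**Figure D4:**
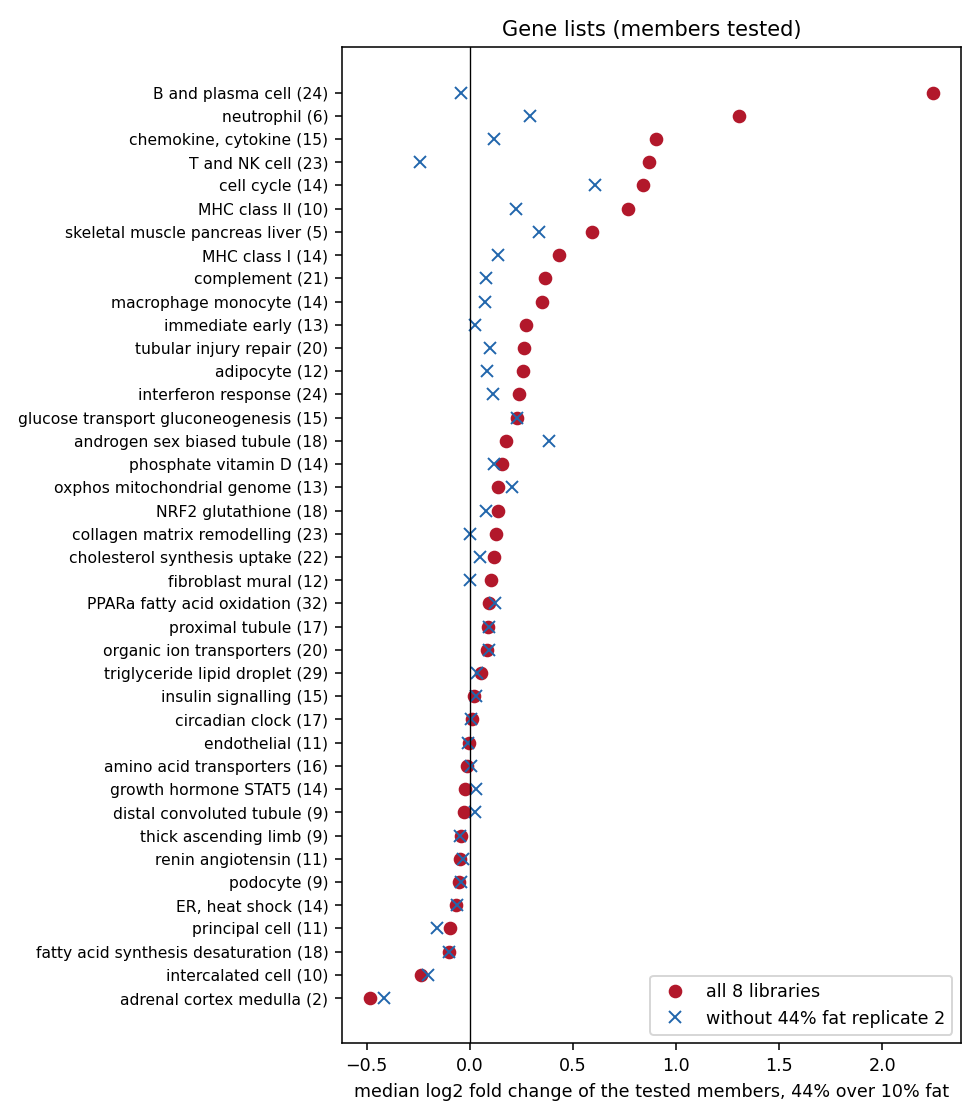
Median log2 fold change (44% over 10% fat) of the tested members of 40 gene lists, with the number tested in parentheses. In the model of all 47 libraries, red points include all 8 female libraries and blue crosses leave out 44% replicate 2. The B and plasma cell list is at 2.25 and -0.04, the cell cycle list at 0.84 and 0.60, and the intercalated cell list at -0.24 and -0.20.

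Along the nephron, none of 17 proximal tubule genes was called (9 positive, median 0.09). Every 44% library lay above every 10% library for 4 of them and below for 5, against 4.09% and 3.22% of all genes. Without 44% replicate 2 these were 6 and 5, against 5.9% and 4.71%. Lrp2, the endocytic receptor megalin, had 8616, 7045, 8318 and 7707 CPM on 44% fat, against 10062, 9672, 10242 and 9598 CPM on 10% fat (edgeR adjusted p = 0.223). None was called among 9 thick ascending limb genes (3 positive, median -0.04), 9 distal convoluted tubule genes (2 positive, median -0.03) or 11 principal cell genes (1 positive, median -0.10). Leaving out 44% replicate 2, the distal convoluted tubule list turned to 7 positive with a median of 0.03, and the principal cell list had 0 positive with a median of -0.16. Calb1, the calcium buffer of the distal tubule, had 479, 466, 518 and 502 CPM on 44% fat, against 342, 358, 348 and 333 CPM on 10% fat (edgeR adjusted p = 0.122). Aqp4, the basolateral water channel of principal cells, had 62.7, 64.1, 54.3 and 59.6 CPM on 44% fat, against 102, 113, 96.3 and 89.7 CPM on 10% fat (edgeR adjusted p = 0.0841). None was called among 9 podocyte genes (2 positive, median -0.05), 11 endothelial genes (5 positive, median -0.01) or 12 fibroblast and mural genes (9 positive, median 0.10, and 6 positive with a median of 0.00099 without 44% replicate 2).

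Transport lists held no call, with 20 organic ion transporters (11 positive, median 0.08), 16 amino acid transporters (7 positive, median -0.01), 14 phosphate and vitamin D genes (12 positive, median 0.15) and 11 renin-angiotensin genes (4 positive, median -0.05). The fit lacking 44% replicate 2 left the amino acid transporters with 8 positive and a median of 0.0066. Slc22a26, an organic anion transporter of the kidney, had 29.1, 12.6, 18.6 and 10.2 CPM on 44% fat, against 44.1, 47.2, 54.9 and 51.3 CPM on 10% fat, a log2 fold change of -1.40 (SE 0.33, edgeR adjusted p = 0.0741). It is also a member of the list of 18 androgen and sex-biased tubule genes (11 positive, median 0.18, none called), whose median was 0.38 without 44% replicate 2. In that list Cyp2e1, a cytochrome that metabolises ethanol and ketones, had 45.5, 57.6, 70.9 and 87.5 CPM on 44% fat, against 39.9, 45.6, 39.6 and 37.0 CPM on 10% fat (edgeR adjusted p = 0.0799).

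None was called among 14 growth hormone and STAT5 genes (7 positive, median -0.02), 17 circadian clock genes (9 positive, median 0.01), 13 immediate early genes (12 positive, median 0.27) or 14 heat shock and endoplasmic reticulum stress genes (6 positive, median -0.07). In the fit lacking 44% replicate 2, the immediate early list had 7 positive and a median of 0.03, and the growth hormone and STAT5 list a median of 0.03. The same held for 18 NRF2 and glutathione genes (13 positive, median 0.14) and 13 mitochondrial genome genes (12 positive, median 0.14), at medians of 0.08 for NRF2 and 0.20 for the mitochondrial genome without 44% replicate 2. Every 44% library exceeded every 10% library for 1 mitochondrial genome gene, and for 6 without 44% replicate 2 (4.09% and 5.9% of all genes). Markers of tissues next to the kidney showed no call, with 12 adipocyte genes (11 positive, median 0.26), 2 adrenal genes of 11 listed (0 positive, median -0.48) and 5 genes of muscle, pancreas or liver of 15 listed (5 positive, median 0.59). When 44% replicate 2 was left out, the adipocyte list had 8 positive and a median of 0.08, and the muscle, pancreas and liver list 4 positive and a median of 0.33. The muscle, pancreas and liver markers summed to 129 to 163 CPM on 44% fat and 73.2 to 95.0 CPM on 10% fat. Taken singly, 1 of the 5 had every 44% library above every 10% library (4.09% of all genes). The part of these markers in other results was not tested. The adipocyte list includes Pck1, an enzyme of glucose synthesis. The proximal tubule also makes glucose, so this list is not particular to fat.

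The diet effect in females was set against that in NZO/HlLtJ males, the most similar comparison in the series, with 4 libraries on each diet. The difference of the effects was called for 1 of 18786 genes (0.00532%), Ces1g, and 2097 genes had an unadjusted p under 0.05. Ces1g, a carboxylesterase that hydrolyses lipid esters in liver (chromosome 8, 93302369 to 93337308, minus strand), had 3.18, 1.53, 1.52 and 1.66 CPM in females on 44% fat and 0.827, 1.08, 0.296 and 0.921 CPM in females on 10% fat. It had 1.96, 11.5, 9.10 and 3.71 CPM in males on 44% fat and 45.0, 42.6, 71.9 and 35.9 CPM in males on 10% fat. The female groups did not overlap with a log2 fold change of 1.26 (SE 0.51, edgeR adjusted p = 0.383), the male log2 fold change was -2.82 (SE 0.42, edgeR adjusted p = 0.000321), and the female minus male difference was 4.08 (SE 0.69, edgeR adjusted p = 0.0191). As in the females, the male diets share run 77, which holds replicates 1 and 2 of each diet, while replicates 3 and 4 are of run 81 on 44% fat and of run 89 on 10% fat. Within run 77, Ces1g stood at 1.96 and 11.5 CPM in males on 44% fat, against 45.0 and 42.6 CPM in males on 10% fat.

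The call of Ces1g did not hold without 44% replicate 1 (difference 3.66, edgeR adjusted p = 0.135), without 10% replicate 1 (4.08, edgeR adjusted p = 0.0844) or without 10% replicate 3 (3.85, edgeR adjusted p = 0.0662) of the females, or on NZO/HlLtJ libraries alone (4.02, edgeR adjusted p = 0.616). It held in all 8 fits that left out 1 male library, with differences of 3.66 to 4.64. Ces1g shares 6.23% of its 31-base words with other genes, most of all with Ces1c (2.67%).

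**Figure D5:**
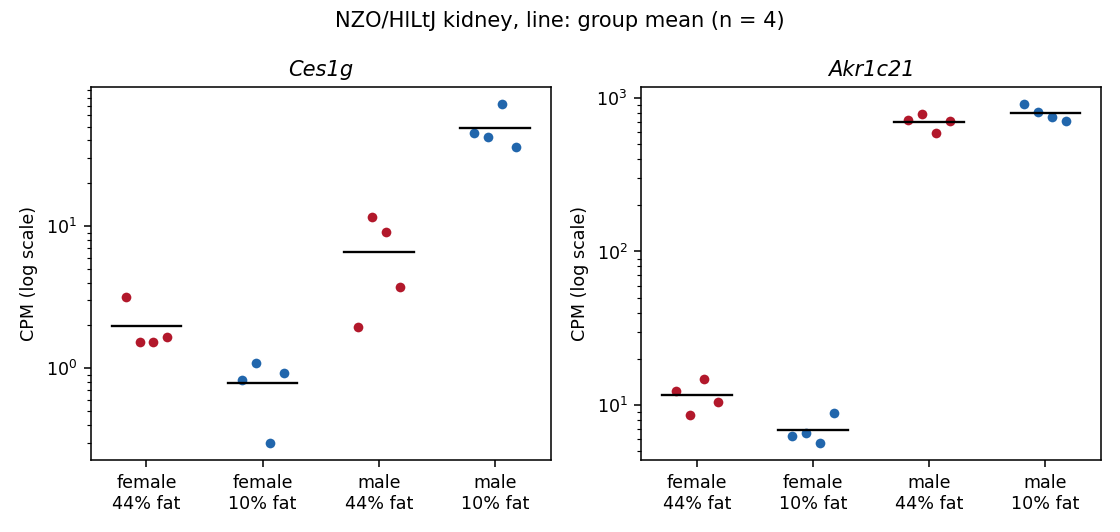
CPM (log axis) of Ces1g and Akr1c21 in each NZO/HlLtJ library, by sex and diet, with lines at the mean of 4 libraries. Ces1g averaged 1.97 CPM in females on 44% fat and 0.782 CPM in females on 10% fat, and 6.57 CPM in males on 44% fat and 48.9 CPM in males on 10% fat. Akr1c21 averaged 11.5 and 6.82 CPM in the same female groups and 702 and 798 CPM in the same male groups.

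Of the 28 genes called in females, 21 had the same sign in males, where 344 genes were called higher (1.83%) and 315 lower (1.68%). The share of all genes with the same sign in both sexes is not given, so the 21 has no background here. The diet also changed 6 of the 28 in males in the same direction, namely Sectm1b (male log2 fold change 0.57, edgeR adjusted p = 0.0135), Eno1, Enpp6, Tagln2, Sdcbp and Col5a2. None of the 28 had a called difference between the sexes. In size 26 of the 28 effects were larger in females, and 17 of the 28 differences had an unadjusted p under 0.05, but the genes had been selected for a large effect in females. The smallest adjusted p of the difference was that of Akr1c21 (edgeR adjusted p = 0.176), whose female minus male difference was 1.06 (SE 0.22). C3 had a male log2 fold change of 0.18 (edgeR adjusted p = 0.785) and a difference of 1.32 that was not called (edgeR adjusted p = 0.261).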

How the data were processed

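Polyadenylated RNA of mouse kidney was sequenced as 100-base read pairs, per the labels' protocols. The authors deposited expected counts per gene, with 25.9% of values not whole, and a variance-stabilized matrix on a log2 scale. Build GRCm38 and DESeq2 are named in the submitters' processing notes, and the aligner and counter are not given in the sources used here.

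Counts were rounded. Of 22474 genes, 3688 with low counts were set aside by edgeR's filter and 18786 were tested. A robust quasi-likelihood F test was run in edgeR 4.0.16 (R 4.3.3) with trimmed mean of M values scaling, a mean for each of 12 groups and an additive sample ID run term, on all 47 libraries with 33 residual degrees of freedom. P-values were adjusted by Benjamini and Hochberg over all genes tested, with a threshold of 0.05, and SEs were derived from F. CPM was computed from TMM-scaled sizes. A library was called uneven for a gene where it held at least 2 times the highest of the other 3 libraries of its diet, for genes with a mean of at least 10 counts. A count of 0 allows up to 3 counts, and such limits cover counting error only. No pair of libraries was identical.

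The genes, the 40 lists and the tests were chosen with earlier results of these data known. Named genes were called genes with an average log2 CPM of at least 1 (the 12 highest and 12 lowest), called list members with up to 4 more of the smallest p, and up to 6 uneven members of an immune list. Ubd, Cd163l1 and Eno1b fall outside this rule and were chosen after their values were seen. Shared 31-base words were counted over the annotated transcripts.

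Alternatives were DESeq2 1.42.0 (its test and its size factors), limma 3.58.1 with voom weights or on the deposited log2 matrix, no filter, no run term, fewer libraries, and each library left out. The fits that left out 44% replicate 2 for list counts, and each male library, were added after the data were seen.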

Additional observations from a re-analysis of the deposited data

Results flagged for a closer look

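The gap between the highest or lowest library and its nearest neighbour, as a share of the range of the 4 libraries of a diet, was compared with Dixon's 95% critical value for 4 samples. Over all genes and lists examined, 30 of 212 gene and list groups exceeded it, where chance flags about 1 in 20 groups (10.6). Some of these genes were chosen because 1 library was uneven for them, and 21 of the 30 are 44% replicate 2, so the count cannot be read against chance.

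On 44% fat, replicate 2 stood apart for immune genes. The share was 0.999 for Ighg2c, 0.992 for Ltf, 0.977 for Lyz2, 0.976 for Igkc, 0.975 for Pax5, 0.974 for Jchain, 0.967 for Cd3e and 0.966 for Cd163l1. It was 0.932 for Cfb, 0.923 for Zap70, 0.918 for C1qa, 0.89 for Ms4a1, 0.859 for H2-Ab1 and 0.834 for H2-DMb1. Of the list sums, that library stood high for neutrophil genes (0.979), B and plasma cell genes (0.955), T and NK cell genes (0.915), macrophage and monocyte genes (0.884) and MHC class II genes (0.865). It stood low for adrenal genes (0.872) and amino acid transporters (0.849).

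Other libraries stood apart for single genes or lists. On 44% fat, replicate 1 was high for Ces1g (0.913) and replicate 4 for heat shock and endoplasmic reticulum stress genes (0.865). On 10% fat, replicate 2 was high for Ighg2c (0.943), Zap70 (0.894) and Pax5 (0.83) and low for Insrr (0.839). Replicate 3 on 10% fat was high for the adipocyte list, which includes Pck1 (0.848), and low for Slc4a1 (0.844). Replicate 4 on 10% fat was high for S100a9 (0.848).

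The diet effect on Ces1g differed between the sexes, with a female minus male difference of 4.08 on the log2 scale that passed the interaction test in edgeR's fit.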

How the results depend on the processing

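Of 1112 values of single genes under an alternative, 810 kept their direction and side of the threshold, 241 lost a call, 55 gained one and 6 reversed. Without 44% replicate 2 the log2 fold change was -0.90 for Cd3e, -0.11 for Ltf, -0.10 for Lyz2 and -2.99 for Ighg2c, where leaving out other libraries gave at most 1.29, 3.93, 1.154 and 9.09 for these 4 genes. With voom weights it was -0.37 for Cd3e and -0.19 for Ighg2c. Against 28 called genes (21 higher, 7 lower), there were 133 (90 and 43) with DESeq2, 75 (43 and 32) with limma-voom and 67 (42 and 25) with no run term. There were 44 (18 lower) on the variance-stabilized matrix, 17 (12 higher) with no filter, and 32 (13 lower) in the 8 female libraries with no run term. The 28 were all among the calls of DESeq2, and 8 were among the 32. No gene was called (0 higher, 0 lower) in edgeR's fits on NZO/HlLtJ libraries alone (1058 at unadjusted p under 0.05) or on run 77 alone (1192). Leaving out 1 library gave 2 to 77 calls, 1 to 51 higher and 1 to 26 lower. The 77 came without 44% replicate 1, and 15 of them are immune list or immunoglobulin genes. The difference from males, with 1 call, was called for 36 with DESeq2, which gave Ces1g no adjusted p, 2 with limma-voom, 0 on NZO/HlLtJ libraries alone and 0 to 5 with 1 library left out. At 3 times rather than 2, uneven genes numbered 8, 155, 4 and 4 in the 44% libraries and 8, 20, 15 and 7 in the 10% libraries. The cause of these shifts was not tested. The labels name no pairs of 44% and 10% libraries, so no paired analysis was made. Genes near 0 CPM rest on few counts, and with 4 libraries a diet 1 library can make or end a call.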
